A study of Mus musculus with 7 samples.

Results

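Estrogen receptor beta (ERβ, encoded by Esr2) is a nuclear receptor that is abundant in the granulosa cells of ovarian follicles. Its classic target sequence, the estrogen response element (ERE), is an inverted repeat of GGTCA and TGACC around 3 free bases that holds a receptor dimer, whereas the single hexamer AGGTCA, the nuclear receptor half-site, is a building block shared by much of the receptor family. Some receptors bind one such hexamer as monomers, among them the NR5A receptors steroidogenic factor 1 and LRH-1, which also read the bases in front of it. The present account concerns ERβ chromatin sites of the mouse ovary that held at least 1 exact half-site but neither an ERE of 0 to 2 mismatches nor an exact motif of the GATA factors, which are transcription factors of granulosa cells. There were 482 such half-site sites among 4251 sites (11.3%).

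The material was whole ovary of C57BL/6J mice that express ERβ from the endogenous gene, with no treatment named, and each ChIP replicate pooled the ovaries of several young to adult mice, without selection of estrous stage according to the methods of the study. Whole-ovary chromatin does not separate granulosa cells from other cells, so that fewer ERβ-positive cells and less ERβ per site cannot be told apart. Chromatin immunoprecipitation and sequencing (ChIP-seq) with the antibody PPZ0506 gave 3 ERβ ChIP libraries, and 2 input libraries were sequenced without the antibody step. ERβ ChIP samples of knockout ovaries were not analysed here, so signal that does not depend on ERβ was not measured. The files hold normalised coverage (signal) with genome means of 0.362 to 0.370 in the 5 libraries and give no read counts, and the study's own read totals were not used here. ChIP replicate 1 and Input replicate 1 carried track names without a run prefix, while the other libraries carried one.

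Members were chosen on these same libraries. A site was a maximum of the 200-bp mean signal of at least 2, over 4 times the mean of both inputs and over 4 times the mean of its own library in the surrounding 10 kb, present in at least 2 of 3 ChIP replicates. The fold is the ChIP signal over the mean input signal in the same 200 bp, with the input set to no less than its genome mean. Of the 4251 sites, 2947 had an ERE of 0 to 2 mismatches (ERE sites), 321 had GATA and no ERE, and 501 had none of the 3 motifs. Signal, fold and the 3 motifs thus follow from the selection and are given as description.

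The half-site sites are first shown as sequence, because the class is defined by letters. Sequences were read from GRCm38 (mm10) and are written 5′ to 3′, with every exact half-site in capitals. It appears as AGGTCA on the plus strand and as TGACCT where it lies on the minus strand. The first 3 are those of the site with the highest fold, the next strongest site and the strongest promoter site, at Npr2.
Exon of Gm2447, chr3:52775241-52775440, plus strand: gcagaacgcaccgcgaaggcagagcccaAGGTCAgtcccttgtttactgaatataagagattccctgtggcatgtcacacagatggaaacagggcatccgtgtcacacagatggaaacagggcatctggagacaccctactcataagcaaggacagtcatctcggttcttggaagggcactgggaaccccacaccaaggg
Intron of Dap, chr15:31237481-31237680, plus strand: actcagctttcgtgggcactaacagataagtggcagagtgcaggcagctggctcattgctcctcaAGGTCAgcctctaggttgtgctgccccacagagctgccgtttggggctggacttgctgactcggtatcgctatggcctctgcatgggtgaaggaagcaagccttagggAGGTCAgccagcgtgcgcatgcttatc
Upstream of Npr2, chr4:43631341-43631540, plus strand: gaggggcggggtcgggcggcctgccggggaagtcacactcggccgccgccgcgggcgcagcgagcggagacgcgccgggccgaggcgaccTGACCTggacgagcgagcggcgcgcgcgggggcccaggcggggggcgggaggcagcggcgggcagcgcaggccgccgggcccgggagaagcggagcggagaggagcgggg

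For other sites among the 10 strongest, the 46 bp around the half-site nearest to the centre were turned so that it reads AGGTCA, which aligns the flanks. One more site with an NR5A motif (CCAAGGTCA or TCAAGGTCA) and a promoter site at Rmdn2 follow them.
Near Efna5, chr17:62961733-62961778, minus strand: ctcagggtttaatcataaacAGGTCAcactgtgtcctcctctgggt
Intron of Adamts2, chr11:50672937-50672982, minus strand: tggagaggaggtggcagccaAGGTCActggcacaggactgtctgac
Near Sh3bgrl2, chr9:83641916-83641961, minus strand: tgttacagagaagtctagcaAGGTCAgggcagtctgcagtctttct
Intron of Atl2, chr17:79883365-79883410, plus strand: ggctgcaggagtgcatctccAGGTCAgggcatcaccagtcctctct
Intron of Phyhip, chr14:70466338-70466383, plus strand: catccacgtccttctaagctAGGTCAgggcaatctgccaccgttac
Intron of Myh10, chr11:68776421-68776466, minus strand: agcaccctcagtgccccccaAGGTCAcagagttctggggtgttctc
Upstream of Rmdn2, chr17:79611706-79611751, minus strand: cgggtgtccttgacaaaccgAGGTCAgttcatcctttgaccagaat
In this group, the Adamts2 and Myh10 half-sites follow the letters CCA and belong to an NR5A motif, and that of Sh3bgrl2 follows CA without completing one. Those of Efna5, Atl2, Phyhip and Rmdn2 have no CA in front.

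The signal formed a narrow summit at the half-site sites. Averaged over the 482 sites, it peaked at 4.98, 6.23 and 5.99 in ChIP replicates 1, 2 and 3, and fell to flank means of 0.485 to 0.532 toward 1 kb from the centre. At 0.5 of its height above the flanks the average peak was 220 bp wide in each of the 3 replicates, at half-site and at ERE sites alike. The inputs averaged 0.693 and 0.616 at the centre, which was 1.17 and 1.15 times their flanks. At ERE sites the average peaks were 5.604, 7.19 and 7.35.

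**Figure D1:**
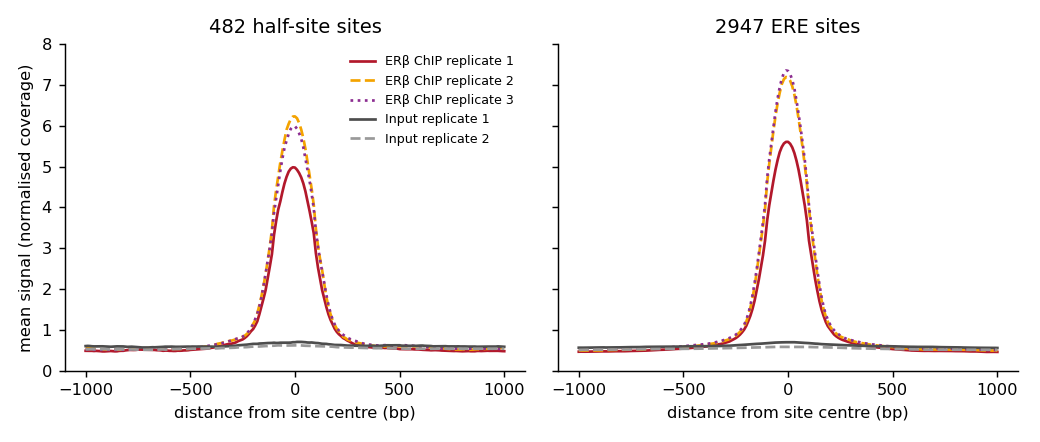
Mean signal (normalised coverage, y axis) by distance from the site centre (bp, x axis) in the 3 ERβ ChIP and 2 input libraries, at the 482 half-site sites (left) and the 2947 ERE sites (right). The ChIP lines peak at 4.98 to 6.23 at half-site sites and at 5.604 to 7.35 at ERE sites, while the inputs stay under 1.

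Across the members, ChIP replicates 1 to 3 had median 200-bp signals of 3.52, 4.40 and 4.10, and the inputs had medians of 0.672 and 0.560. The median fold was 5.56, 6.69 and 6.45 in ChIP replicates 1, 2 and 3. The mean fold over the 3 replicates had a median of 6.19, quartiles of 4.83 and 8.82 and a range from 3.36 to 33.0. The spread of a member over the replicates had a median SD of 0.31 on the log2 scale. At 479 of the 482 members each ChIP value lay above both inputs, against 7.69% of all 200-bp tiles of the genome, a count that the selection largely fixes. A mean fold of at least 8 was reached by 151 members and at least 16 by 26, against 0.013% and 0.0027% of tiles.

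ChIP replicate 1 gave the lowest of the 3 signals at 57.3% of the members, and ChIP replicate 2 the highest at 46.5%. All 3 replicates held 312 members (64.7%). Of the other members, 103 were held by replicates 2 and 3, 49 by replicates 1 and 2, and 18 by replicates 1 and 3. A further 311 candidates with the same letters were held by 1 replicate and were left out. Replicate 1 also stood apart from the other ChIP libraries by its track name, and the part of that in its lower signal was not tested.

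Members near the thresholds differed little from candidates that missed them. Just inside the height were sites near Rhobtb1 and Vdac1, whose second-highest ChIP signal was 2.009 and 2.012. Just outside were sites near Nrbf2 and Cdkn1c at 1.999 and 1.986, the latter also under the fold. For the fold, sites near Ptpn3 and Coa7 lay just inside with a second-highest value of 4.004 and 4.03, and sites near Spsb1 and Cradd just outside with 3.979 and 3.978.

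A comparison that the selection did not set used each ChIP library only at sites that both other ChIP libraries had called, while the inputs were also those of the calls. In that held-out library the median fold of half-site sites was 5.597 in replicate 1 (419 sites), 7.84 in replicate 2 (332 sites) and 7.25 in replicate 3 (362 sites), a mean of 6.90 ± 1.16 (SD, n = 3). The held-out fold exceeded 4 at 76.8%, 93.1% and 87.6% of these sites, against 0.0396%, 0.058% and 0.0551% of all tiles in the same libraries. ERE sites read in the same way had a mean of 7.88 ± 1.40 (SD, n = 3). The difference in median log2 fold, half-site minus ERE sites, was -0.16, -0.17 and -0.24 in the replicates, a mean of -0.19 ± 0.04 (SD, n = 3). Half-site sites were lower in 3 of 3 replicates, and the exact two-sided sign-flip permutation test gave p = 0.25, which is the smallest that 3 replicates allow (adjusted p = 0.375 over 3 comparisons). The difference from sites with GATA and no ERE was -0.01 ± 0.05 (exact permutation p = 0.75, adjusted p = 0.75), with a mixed sign over the replicates. That from sites with none of the 3 motifs was 0.14 ± 0.03 (exact permutation p = 0.25, adjusted p = 0.375), higher in 3 of 3 replicates.

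The genome-wide comparison of ChIP with input used limma on 1-kb windows, and all 482 members lay in tested windows. Of these, 234 (48.5%) lay in windows higher in ChIP at a Benjamini-Hochberg adjusted p under 0.05, against 0.0957% of 2430657 windows. The members were chosen on this contrast, so nothing is read from the count. The count changed with the ChIP library left out, to 249 members without replicate 1, 104 without replicate 2 and 242 without replicate 3. Each of these fits has 1 library fewer, and the part of that was not tested.

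The strongest members are described first, then promoters, half-site context, repeated copies and gene groups. The highest mean fold, 33.0 ± 5.66 (SD over 3 replicates), was at chr3:52775241-52775440, in exon 4 of 4 of the non-coding transcript Gm2447. ChIP replicates 1 to 3 reached 20.5, 28.4 and 27.7 over inputs of 0.744 and 0.802. Its NR5A motif lay 69 bp from the centre, and the nearest protein-coding start, that of Cog6, was 242 kb away. The half-site of this site is therefore among the less central ones.

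The site in intron 2 of 3 of Dap, the gene of a death-associated protein, had signals of 16.4, 20.6 and 18.3 over inputs of 0.640 and 0.510, a mean fold of 32.1 ± 3.68. It held 2 half-sites, one of them in an NR5A motif. The intronic site of Adamts2, which encodes a procollagen peptidase (intron 3 of 21), had signals of 25.7, 30.6 and 27.7 over inputs of 0.754 and 1.17, a mean fold of 29.1 ± 2.59. At both sites the replicates stayed close together.

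An intergenic site 80.4 kb upstream of Efna5, the gene of an ephrin ligand, had signals of 13.5, 20.01 and 18.2 over inputs of 0.676 and 0.460, a mean fold of 30.3 ± 5.95. The intergenic site nearest to Sh3bgrl2 (93.6 kb) had 10.8, 10.3 and 13.1 over 0.290 and 0.5 (28.8 ± 3.73), with inputs below the median of the members. The site in intron 1 of 12 of Atl2, which encodes an atlastin that shapes the endoplasmic reticulum, had 11.9, 15.1 and 16.8 over 0.860 and 0.354 (24.1 ± 4.03). The site in intron 4 of 4 of Phyhip had 14.04, 20.4 and 20.2 over 0.868 and 0.719 (23.0 ± 4.58). In each of them ChIP and input values did not overlap, which the selection largely fixes (479 of the 482 members, against 7.69% of all tiles).

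Promoters were taken as 1 kb upstream to 100 bp downstream of an annotated start. They held 45 members (9.34%) with all transcripts and 25 (5.19%) with protein-coding transcripts alone. By comparison, 3.64% of all tiles, 4.03% of tiles with a half-site but no ERE or GATA, 9.06% of ERE sites and 17.0% of sites with none of the motifs were in promoters of any transcript. With protein-coding transcripts alone, the shares were 1.47% of all tiles, 1.59% of such tiles, 5.16% of ERE sites and 11.2% of sites with none. The 25 members had a median mean fold of 6.58 with a range from 3.36 to 28.5, 16 were held by all 3 replicates, and their median GC content was 60.5%. The inputs were also higher there, with medians of 0.760 and 0.902, and the part of this in the folds was not tested.

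The strongest promoter member lay 0.495 kb upstream of Npr2 (chr4:43631341-43631540), which encodes the receptor for C-type natriuretic peptide, part of the signal by which follicle cells hold the oocyte in meiotic arrest. ChIP signals of 17.8, 15.98 and 29.1 stood over inputs of 0.721 and 0.751, a mean fold of 28.5 ± 9.63. Replicate 3 stood above the other ChIP libraries there. The site also overlaps the annotated microRNA gene Gm25262. Its half-site lay 7 bp from the centre in sequence of 83.5% GC, the half-site being followed directly by GGTC on the strand that reads AGGTCA.

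The promoter of Amh, which encodes anti-Müllerian hormone, a granulosa cell product that restrains follicle recruitment, held a member 0.233 kb upstream of the start. ChIP signals of 13.2, 13.2 and 6.66 stood over inputs of 0.439 and 0.526, a mean fold of 22.9 ± 7.85. Replicate 3 was the low library here, the reverse of its place at Npr2. The half-site lay 18 bp from the centre, while the best ERE match, with 3 mismatches, lay 76.5 bp away. No site of another class had Amh as its nearest gene.

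Further promoter members lay 0.008 kb downstream of the start of Dok7, an adaptor of the muscle synapse, in 5′ UTR sequence, with a mean fold of 12.7 ± 1.57. The promoters of Rmdn2 (0.123 kb upstream, 10.8 ± 1.80) and Aldh3b1, an aldehyde dehydrogenase gene (0.002 kb upstream, 9.85 ± 1.19), followed. At Aldh3b1 the half-site belonged to an NR5A motif and lay 4 bp from the centre. The Dok7 half-site was 95 bp from the centre, near the edge of the searched sequence.

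**Figure D2:**
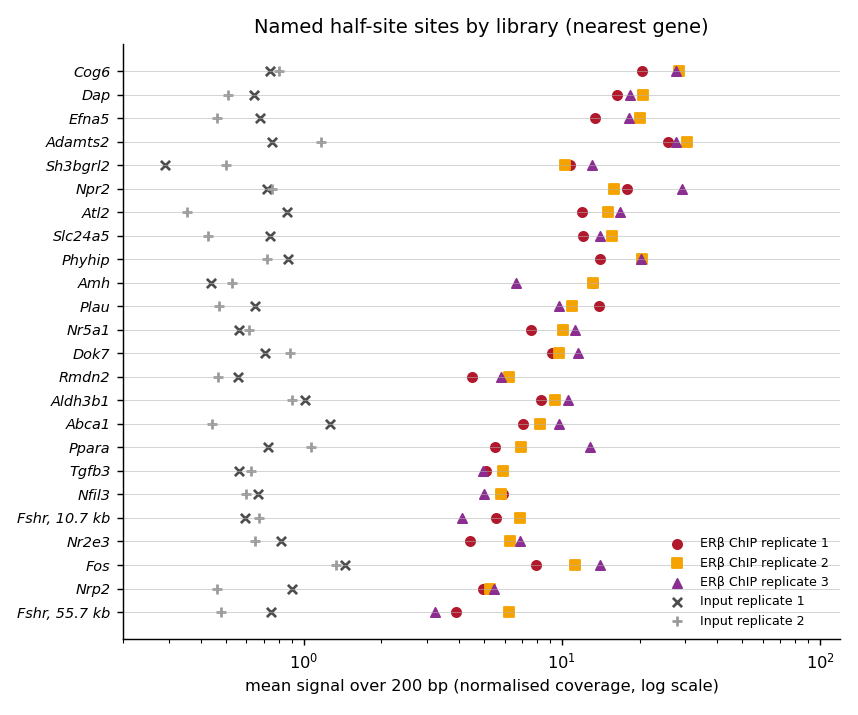
Mean signal over 200 bp (normalised coverage, log x axis) of the named half-site sites, each on 1 line labelled by its nearest protein-coding gene and ordered by mean fold, with 1 point for each of the 3 ERβ ChIP and 2 input libraries. At each of these sites all ChIP points lie to the right of both input points, which the selection largely fixes. Replicate 3 is the highest ChIP point at Npr2 and the lowest at Amh.

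Over all members, 210 lay in introns (43.6%), 173 in intergenic sequence (35.9%), 27 at transcript ends, 8 in coding exons and 19 in other exons. Of all tiles, 39.3% were intronic and 50.1% intergenic. Intron 1 held 86 of the 210 intronic members (41.0%) and intron 2 held 26. The same shares were not computed for tiles or other sites, so these counts are description only. The median distance to a protein-coding start was 24.8 kb (24.2 kb at ERE sites), and 161 members (33.4%) lay over 50 kb away. Those distant members had a median mean fold of 6.39 and promoter members one of 6.38. In replicates 1, 2 and 3 the median folds were 5.85, 6.87 and 6.63 at distant members and 4.82, 6.59 and 7.68 at promoter members. Promoter members were thus lower in replicates 1 and 2 and higher in replicate 3. All 3 replicates held 67.7% of the distant and 57.8% of the promoter members.

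A half-site was present in 49.0% of the sites with no ERE and no GATA, against 9.98% of the 9960141 tiles without these motifs. One half-site was found at 349 members, 2 at 105, 3 at 22 and 4 or more at 6. Members with at least 2 made up 27.6%, against 6.27% of tiles with a half-site but no ERE or GATA. Where exactly 2 were present, 58 sites had them in the same direction, 18 facing each other and 29 facing apart, with a median gap of 42 bp. Members with 1 half-site and with more had median mean folds of 6.30 and 5.93. In replicates 1, 2 and 3 the medians were 5.58, 6.69 and 6.47 with 1 and 5.52, 6.74 and 6.44 with more, in mixed order.

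The rule used the presence of a half-site, not its place in the 200 bp. Of the 661 half-sites, 40.4% lay within 25 bp of the site centre, against 25.9% in the tiles with a half-site but no ERE or GATA. Counting only the half-site nearest to the centre of each site, 51.7% lay within 25 bp, at a median of 24 bp. That choice by itself moves the share toward the centre, and it was not made for tiles. In ERE sites the best ERE was within 25 bp at 68.0% and at a median of 16.5 bp. The half-sites were thus placed toward the centre less sharply than the EREs of the other class.

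The position of weaker ERE matches was closer to that of the ERE class. Matches of exactly 3 mismatches in the 10 fixed bases were present at 430 members (89.2%), against 53.9% of the tiles with a half-site but no ERE or GATA, and the other 52 members had 4 mismatches. Where several matches tied, the one nearest to the centre was taken in both. It lay within 25 bp of the centre at 65.3% of the 430 members, at a median of 17.5 bp, against 33.8% and 39.5 bp in tiles. An exact half-site formed an arm of that match at 154 of the 430, where 72.1% were within 25 bp, and formed none at 276, where 61.6% were. The same share was 64.7% at sites with none of the 3 motifs and 65.9% at GATA sites, so that central 3-mismatch matches were found with and without half-sites.

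Members with 3 and with 4 mismatches differed in several measures. At the 52 members with 4 mismatches, 31.3% of the half-sites were within 25 bp of the centre and 7.69% of the members held an NR5A motif. At the 430 with 3 mismatches, the values were 41.4% and 19.3%. The median folds were 4.81, 6.64 and 5.93 in the 3 replicates at 4 mismatches and 5.59, 6.72 and 6.50 at 3, lower at 4 mismatches in each replicate. All 3 replicates held 55.8% and 65.8% of them. These are descriptions of members of the same calls, and no test was made.

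**Figure D3:**
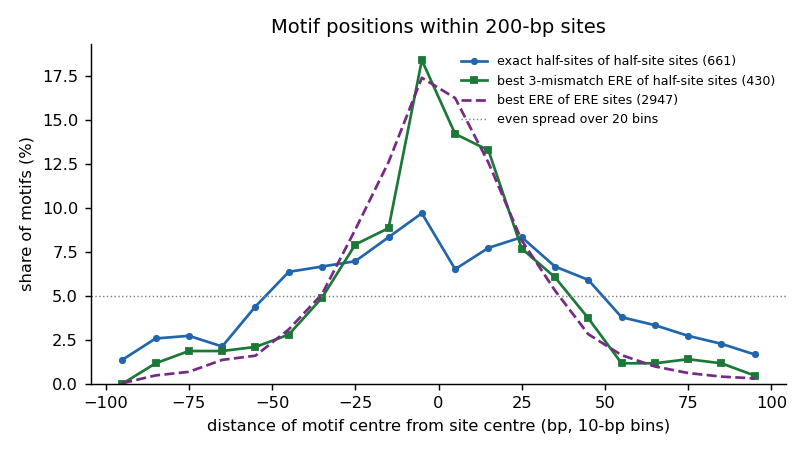
Share of motifs (%, y axis) by distance of the motif centre from the site centre (bp in 10-bp bins, x axis) for the 661 half-sites and the 430 best 3-mismatch ERE matches of half-site sites and for the best ERE of the 2947 ERE sites, with a dotted line for an even spread. The 3-mismatch matches follow the EREs, with 65.3% and 68.0% within 25 bp, against 40.4% of all half-sites. Counting only the nearest half-site of each site gives 51.7%, a choice that moves the share toward the centre. Of tied matches the one nearest to the centre was taken, so the dotted line is no background for them (3-mismatch matches in tiles: 33.8% within 25 bp).

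The bases in front of the half-site were free under the rule. C stood 2 positions before it in 45.7% of the 661 half-sites, against 21.1% in tiles, and A directly before it in 42.8%, against 31.02%. After the half-site, C followed directly in 35.6%, against 20.6%. C was more common than in tiles farther off too, such as 8 positions before the half-site (29.5%, against 19.3%). The median GC content was 51.5% at members and 44.0% in tiles with a half-site, and its part in these shares was not tested. The letters CA in front of the half-site (CAAGGTCA, the shared core of NR5A and estrogen-related receptor motifs) were present at 138 members (28.6%), against 9.27% of half-site tiles. Among the sites of other classes that also held a half-site, they were present at 17.4% of 1866 ERE sites and 21.3% of 169 GATA sites.

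The full NR5A motif, which is read by steroidogenic factor 1 and LRH-1, key regulators of steroid hormone synthesis, was present at 87 members (18.0%). It was found in 5.63% of the tiles with a half-site but no ERE or GATA, in 10.8% of the 1866 ERE sites with a half-site and in 11.8% of the 169 GATA sites with one. CCAAGGTCA occurred at 57 members (11.8%, tiles 2.49%) and TCAAGGTCA at 31 (6.43%, tiles 3.16%). Of the 99 NR5A motifs in members, 31.3% lay within 25 bp of the centre, and of the 562 half-sites outside such motifs, 41.8% did. A match is a description of letters and by itself no sign of binding by another receptor, which was not measured here.

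NR5A motifs were present at 4 of the 10 strongest members (Gm2447, Dap, Adamts2 and Slc24a5) and at 5 of the 26 with a fold of at least 16. The next of the strongest NR5A members lay in intron 15 of 40 of Myh10, a nonmuscle myosin gene, 76.6 kb from the start of Ndel1. Its signal was 11.8, 12.2 and 11.6 over inputs of 0.532 and 0.790, a mean fold of 17.9 ± 0.430. The median folds were 5.19, 6.87 and 6.05 at the 87 members with the motif and 5.58, 6.68 and 6.49 at the 395 without it. The order of the groups differed between replicates, and 64.4% and 64.8% of them were held by all 3.

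Other motifs were searched on both strands in the same 200 bp. The GC box (GGGCGG), bound by Sp factors, was present at 47 members (9.75%, tiles with a half-site 2.03%, all tiles 1.96%). It was present at 7.02% of ERE sites and at 14.8% of sites with none of the 3 motifs, so that its share above the tiles was not particular to half-site sites. The median GC content of members was 51.5%, that of tiles with a half-site 44.0% and that of all tiles 41.5%, and its part in the GC box share was not tested. The AP-1 motif (TGACTCA or TGAGTCA), bound by Fos and Jun dimers, was present at 30 members (6.22%, all tiles 3.11%), and the forkhead motif of FOXO factors (TGTTTAC) at 29 (6.02%, all tiles 2.98%). ERE sites had 6.96% and 4.45%, GATA sites 4.67% and 6.23%, and sites with none of the 3 motifs 7.78% and 5.19%. Tiles with a half-site but no ERE or GATA had 3.32% and 2.78%. The RUNX core (TGTGGT) was present at 59 members (12.2%), below the 13.8% of all tiles. The cAMP response element (TGACGTCA) was present at 1 member. The palindrome read by glucocorticoid, progesterone and androgen receptors was present at 16 (3.32%), against 0.319% of all tiles, 2.44% of ERE sites, 4.36% of GATA sites and 4.79% of sites with none of the 3 motifs.

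**Figure D4:**
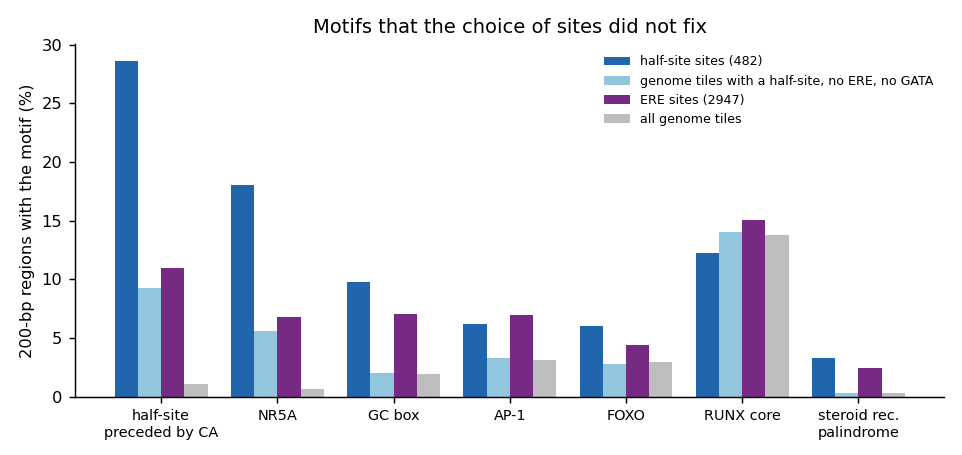
Share of 200-bp regions that hold each motif (%, y axis from 0) in half-site sites, in genome tiles with a half-site but no ERE or GATA, in ERE sites and in all genome tiles. The half-site preceded by CA (28.6%) and NR5A (18.0%) stand above the matching tiles (9.27% and 5.63%), whereas the RUNX core does not, and the ERE sites include those without a half-site.

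A set of members lay in copies of 1 repeated sequence. Among the 482 members, 27 shared a stretch of 25 bases with another member, in 6 families, and the largest family held 14. In 9 of the 14, 2 half-sites ran in the same direction with 40 bp between them, a spacing found at 10 members in all. The sequences below show the strongest copy, which is also among the 10 strongest members, and the next strongest one, chosen after their values were seen.
Upstream of Slc24a5, chr2:125062601-125062800, plus strand: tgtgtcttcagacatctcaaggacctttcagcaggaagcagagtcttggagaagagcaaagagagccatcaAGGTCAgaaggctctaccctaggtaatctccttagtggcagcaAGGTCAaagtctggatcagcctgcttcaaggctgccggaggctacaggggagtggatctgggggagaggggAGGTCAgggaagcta
Near Hpf1, chr8:60870691-60870890, plus strand: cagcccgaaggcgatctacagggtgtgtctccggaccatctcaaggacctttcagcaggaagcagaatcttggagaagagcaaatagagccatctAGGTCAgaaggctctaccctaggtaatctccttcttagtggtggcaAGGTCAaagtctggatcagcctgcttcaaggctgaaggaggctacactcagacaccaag
The Hpf1 copy has the 40-bp spacing. In the Slc24a5 copy the first and the middle half-site are less than 40 bp apart, and another one lies farther on in the same direction.

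The copies differed widely in signal. The site 5.42 kb upstream of Slc24a5, a pigment cell ion exchanger gene, had ChIP signals of 12.1, 15.7 and 14.02 over inputs of 0.743 and 0.425, a mean fold of 23.9 ± 3.10. The copy near Hpf1 had 2.99, 6.14 and 6.70 over 0.524 and 0.496 (10.4 ± 3.93). The copy with the lowest mean fold, near Man1a, had 2.23, 2.74 and 3.13 over 0.679 and 0.518 (4.51 ± 0.756). The median over the 14 was 5.69, and 10 of them were held by all 3 replicates.

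From 44.0% to 97.5% of the bases of these 14 sites are soft-masked as repeats in the assembly, and they lie from 4.65 kb to 1023 kb from a protein-coding start. The 25-base stretch shared by most of them, held by 10 members, occurs 52 times on the chromosomes used, and 10 of these copies lay within a site. Reads that map to several copies were not used by the authors, so copies with few differences can lose signal, and the part of this in the count of 10 was not tested. Of the 87 members with an NR5A motif, 11 were in any of the 6 families. Over all members, 27 (5.602%) were mostly repeat sequence, against 5.23% of ERE sites.

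**Figure D5:**
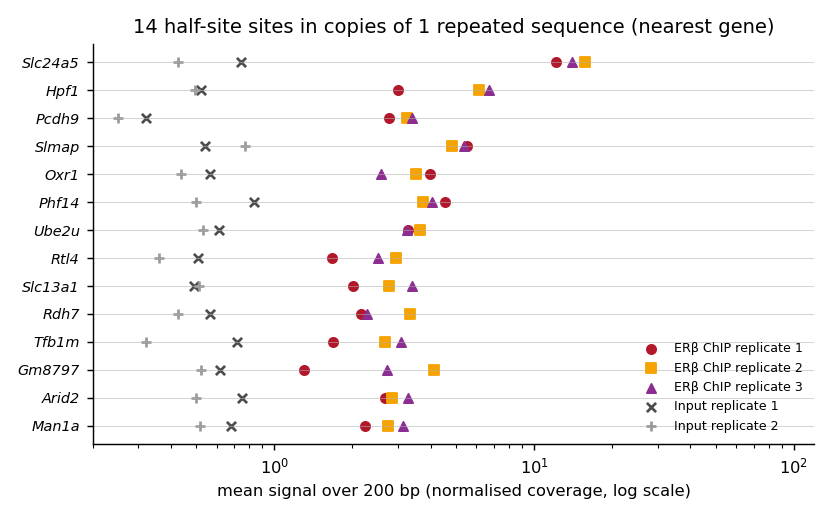
Mean signal over 200 bp (normalised coverage, log x axis) of the 14 half-site sites that share a repeated sequence, each on 1 line labelled by its nearest protein-coding gene and ordered by mean fold, in the 3 ERβ ChIP and 2 input libraries. The copy at Slc24a5 has ChIP signals from 12.1 to 15.7, while the copy at Man1a has 2.23 to 3.13.

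The 6 members with 4 or more half-sites were of a different make-up, most of them with half-sites at regular steps along 1 tandem repeat. They are shown by the site in intron 4 of 11 of Mapkap1 and by the member with the most half-sites, 12 in intron 23 of 26 of Pld1, again chosen after their values were seen.
Intron of Mapkap1, chr2:34486171-34486370, plus strand: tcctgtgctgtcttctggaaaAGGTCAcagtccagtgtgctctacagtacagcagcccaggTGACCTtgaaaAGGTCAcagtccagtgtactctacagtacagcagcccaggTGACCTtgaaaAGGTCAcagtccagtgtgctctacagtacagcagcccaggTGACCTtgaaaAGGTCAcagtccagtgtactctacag
Intron of Pld1, chr3:28113981-28114180, plus strand: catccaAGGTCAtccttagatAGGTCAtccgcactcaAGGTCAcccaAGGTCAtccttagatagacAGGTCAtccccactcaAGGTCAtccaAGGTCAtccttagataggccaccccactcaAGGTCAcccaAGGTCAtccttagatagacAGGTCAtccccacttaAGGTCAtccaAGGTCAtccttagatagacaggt
The Mapkap1 site holds 7 half-sites in both directions and had a mean fold of 10.4 ± 2.03. The Pld1 site, with all 12 half-sites in the same direction, had 5.66 ± 2.09. More half-sites did not go with more signal between these sites.

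The nearest protein-coding start was used to relate members to genes, which says nothing of regulation. The 482 members were nearest to 452 genes (2.08% of 21681), of which 238 had no site of another class. The gene lists are small sets of ovarian genes chosen with earlier results known. Over all lists, 23 of 254 genes (9.06%) were nearest to a member and 99 (39.0%) to any site, against 13.5% of all protein-coding genes for any site. Of the 23 genes, 9 also had an ERE site and 10 had no site of another class. Among the genes named below, Nr5a1 and Nfil3 had 1 ERE site each. Gata6, Jun, Nr5a2, Plau, Ppara and Tgfbr3 had 2 each.

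Among transcription factors of granulosa cells and gonads, 5 of 31 genes had a member: Cebpa, Fos, Foxo1, Gata6 and Jun. The site 12.1 kb downstream of the start of Fos, an AP-1 subunit induced by gonadotropins, had signals of 7.96, 11.3 and 14.1 over comparatively high inputs of 1.44 and 1.34, a mean fold of 7.99 ± 2.20. ChIP and input values did not overlap there, which the selection largely fixes. The members of the other genes had mean folds from 4.46 (Cebpa) to 6.85 (Gata6).

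Of 44 nuclear receptor genes, 5 had a member: Nr2e3, Nr2f2, Nr5a1, Nr5a2 and Ppara. The site in intron 4 of 6 of Nr5a1, which encodes steroidogenic factor 1, had signals of 7.58, 10.1 and 11.2 over inputs of 0.564 and 0.617, a mean fold of 16.3 ± 3.16. Its half-site lay 7 bp from the centre and is not part of an NR5A motif. The site 64.5 kb upstream of Ppara, a fatty acid receptor gene, lies in intron 1 of 6 of the non-coding Lncppara and had 5.53, 6.93 and 12.9 over 0.728 and 1.07 (9.42 ± 4.35), with replicate 3 far above the others. The site near Nr2e3, a photoreceptor gene, had a mean fold of 8.03 ± 1.77. The site nearest to Nr2f2 lay 552 kb from its start, with a mean fold of 4.92. That nearest to Nr5a2 lay 244 kb away, with folds of 2.93, 4.05 and 5.02 in replicates 1, 2 and 3.

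In the list of TGF-beta, activin, BMP and AMH signalling, 3 of 36 genes had a member: Amh, described above, Tgfb3 and Tgfbr3. The site nearest to Tgfb3, a TGF-beta ligand gene, lies in intron 33 of 33 of Ttll5 and had 5.10, 5.92 and 4.96 over 0.560 and 0.628 (8.97 ± 0.877). Of 25 genes of gonadotropin receptors and cAMP signalling, 2 had members, Fshr and Prkar2b, with 2 members each.

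Both Fshr members lie in intron 1 of 9 of the gene of the follicle-stimulating hormone receptor, the main gonadotropin receptor of granulosa cells. The one 10.7 kb from the start had signals of 5.58, 6.88 and 4.09 over inputs of 0.594 and 0.670 (8.72 ± 2.21). The one at 55.7 kb had 3.91, 6.24 and 3.23 over 0.748 and 0.480 (7.26 ± 2.57). At both, replicate 2 was the highest and replicate 3 the lowest of the ChIP libraries. No ERE site had Fshr as its nearest gene, but 1 site of another class did.

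In 3 of the other lists 1 gene had a member. Plau, which encodes the urokinase plasminogen activator, was the only one of 30 ovulation and matrix genes with a member, an intergenic site at 34.8 kb with signals of 13.9, 10.9 and 9.73 over 0.646 and 0.470 (20.6 ± 3.82). Abca1, a cholesterol efflux pump gene, was the only one of 30 genes of steroid synthesis and cholesterol supply, with a mean fold of 9.79 ± 1.58 in intron 5 of 49. Nfil3, a bZIP repressor gene, was the only one of 18 circadian clock genes (8.83 ± 0.814, 87.1 kb upstream). Of 23 vessel and luteal genes, 3 (13.04%), Lgmn, Nrp2 and Pdgfrb had members, and the site in intron 2 of 15 of Nrp2, a receptor of vascular endothelial growth factors and semaphorins, had a mean fold of 7.68 ± 0.377.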

How the data were processed

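ChIP-seq of mouse ovary was analysed from 5 deposited tracks. According to the study's methods, the authors aligned single reads with STAR to mm10, kept uniquely mapped reads and used HOMER; the deposited values are signal, that is normalised coverage with similar totals per library, each library on its own. How duplicate reads were treated is not given in the sources used here. The files give no read counts and the study's read totals were not used here, so the precision rests on the replicates, and replicates may differ for technical reasons.

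Tracks were averaged in 10-bp bins over the autosomes and chromosome X. Sites were called as described in the report, and maxima within 200 bp were merged. The ERE was searched with mismatches counted over its 10 fixed bases, the half-site, NR5A, the 8-position GATA motif of the study and other motifs without mismatch, on both strands. Shares were set beside all 12796535 200-bp tiles without unknown bases. Locations come from GENCODE vM21, with the longest protein-coding transcript at a site, or else the longest of any kind, for exon and intron numbers. 1-kb windows with a mean signal of at least 0.1 were tested with limma 3.58.1 on log2(signal + 0.5) for 3 ChIP against 2 input libraries. Both steps were tested on simulated data (Python 3.11.15, R 4.3.3).

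The sites named were the 10 members of highest mean fold held by all 3 replicates, the 5 strongest in protein-coding promoters, the 5 strongest with an NR5A motif, up to 12 near genes of the lists (by mean fold, at most 4 per list) and those at the thresholds. Other sites given with values or sequence, the repeated copies and tandem repeats, were chosen after seeing the data. Members, lists and tests were chosen with earlier results of these data known. Alternatives covered the calling thresholds, motif letters, sequence length, promoter definition, inputs, replicates, pseudocount, window filter, batch and replicate block. The sequence of 1 site and the result of 1 gene list are not reported here.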

Additional observations from a re-analysis of the deposited data

How the results depend on the processing

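The number of half-site sites, 482 as reported, was 155 with 8-fold over input, 312 when all 3 replicates had to hold a site and 52 when EREs of 3 mismatches were also kept out. It was 710 with the half-site cut to its 5 bases GGTCA, and 332 to 419 when 1 ChIP replicate was left out. The share of half-sites within 25 bp of the centre, 40.4%, was 43.4% with 8-fold and 31.3% with 3-mismatch EREs kept out. It was 30.4% in 400 bp, whose longer sequence holds more distant half-sites, and no tile share of that length was computed beside it. Leaving out 1 ChIP replicate gave 39.5% to 43.4%. The NR5A share, 18.0%, was 12.3% with the half-site cut to its 5 bases GGTCA, 7.69% with 3-mismatch EREs kept out and 20.05% in 400 bp. The promoter share, 9.34%, was 11.7% with the 5-base half-site and 5.19% with protein-coding transcripts. The mean held-out fold, 6.90, was 11.5 with 8-fold over input, a cut that itself keeps only stronger sites. The cause of these changes was otherwise not tested. The held-out difference from ERE sites stayed negative in all 15 alternatives (-0.23 to -0.16), in a design that cannot reach a p under 0.25. The alternative without the 27 sites that share 25 bases, added after seeing the data, left 455 members, 40.1% of half-sites within 25 bp, 16.7% with NR5A and 9.67% in promoters.

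The number of members in windows called higher, 234, ranged from 88 to 249 when 1 library was left out. All higher windows numbered 2326, but 1261 without ChIP replicate 2, 1363 without Input replicate 1 and 1009 without Input replicate 2. With the replicate number as a block, 281 members were called, and windows numbered 3428 higher and 3209 lower against 65 lower without the block. The numbers pair samples by name, and ChIP and Input replicate 1 also shared track names without a run prefix. Deviations from the group means correlated at 0.0362 between ChIP and Input replicate 1 and at -0.0111 between ChIP and Input replicate 2. The deviations of the 2 inputs mirror each other, so these correlations cannot settle the pairing.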

Other observations

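Some half-site sites had another ERβ site nearby. Of the 482, 77 (15.98%) lay within 10 kb of another ERβ site, against 14.4% of ERE sites, 19.6% of GATA sites and 18.6% of sites with none of the motifs. The next site was an ERE site for 45 of the 77 (58.4%), against 63.8% to 70.97% in the other classes, and a half-site site for 14 (18.2%), against 9.68% to 15.9%. These differences were not tested. By nearest protein-coding start, 25 genes had at least 2 half-site sites. The most were at Lhfpl2 with 4, followed by Ptpn23, Rbfox1 and Spsb1 with 3 each, and these genes were chosen after their values were seen.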
